A study of Mus musculus with 18 samples.

Results

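The comparison described here sets the kidneys of mice given a high fat diet together with AOS (HFD+AOS) against the kidneys of controls. It uses 6 of the 18 libraries of the series, 3 in each group, chosen by the treatment label alone. All mice are labelled ICR, an outbred strain, and 10 weeks old. The HFD+AOS group received the high fat diet and AOS at 10 mg/kg, and the control group carries the label control and nothing else. The other groups, also of 3 libraries, were AOS alone at 10 mg/kg, the high fat diet alone (HFD), and the diet with a faecal microbiota transplant (FMT) labelled AOS 10 mg/kg (HFD+AOS-FMT) or control (HFD+control-FMT). The abbreviation AOS is kept here in the form the submitters use. The labels give neither the sex, the length and content of the diet, the route of AOS nor the time of day at collection. No label states that each library is a different animal, and the p-values below therefore reflect only the spread among these libraries, which could be technical. The comparison changes diet and AOS together, and its difference from diet alone and from AOS alone was therefore tested as well.

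The kidney filters blood in the glomerulus and reclaims water, salts, glucose and amino acids along the tubule, and the proximal tubule pays for this largely by burning fatty acids. The nuclear receptor encoded by Ppara drives the genes of fatty acid oxidation, while the transcription factors of the SREBP family drive those of fatty acid and sterol synthesis. Kidney cells also run a circadian clock, in which the activators made from Arntl, Clock and Npas2 switch on their own repressors, the Per, Cry and Nr1d genes, and a set of output factors that includes Dbp, Tef and Hlf. Many transport and lipid genes of the kidney follow that clock through the day.

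Values are the authors' normalized signals per gene and library, and the number of reads behind them is not known. Differences are on the log2(value + 1) scale, HFD+AOS minus control, a scale that makes differences at low signal look smaller. The 12030 genes that reached a signal of 1 in 3 libraries or more entered one limma model over all 18 libraries. A gene passed at a Benjamini-Hochberg adjusted p under 0.05. Control replicate 3 stood apart. It correlated with the other libraries at r = 0.948 to 0.963 across tested genes, where the other 17 correlated among themselves at 0.979 to 0.993. Kap, the androgen-regulated protein of the proximal tubule, took 2.48% of its summed signal and 17.2% to 22.9% in the others. Star, which brings cholesterol into mitochondria for steroid synthesis in the adrenal gland, stood at 124.64 in it, against at most 1.08 in the other libraries of the control, AOS, HFD and HFD+AOS groups. The model was therefore also fitted without control replicate 3 (17 libraries), and values from the 2 fits are given side by side for many of the genes described. A value given alone is from all 18 libraries unless the text says otherwise. Against HFD or AOS alone the log2 difference is the same in both fits, and only its p changes.

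With all 18 libraries 540 genes passed (4.49% of those tested), of which 197 were higher in HFD+AOS (1.64%) and 343 lower (2.85%). Without control replicate 3 the count was 641 (5.33%), 343 higher (2.85%) and 298 lower (2.48%). A set of 333 genes passed in both fits (2.77%), 139 higher (1.16%) and 194 lower (1.61%), each with the same sign in both. Their median absolute log2 difference was 0.48, 180 of them differed by less than 0.5 and 29 by more than 1. The 3 HFD+AOS and 3 control libraries did not overlap for 21.6% of all tested genes. The median log2 difference of all genes was -0.09 with 18 libraries and -0.02 without control replicate 3. After quantile normalization of the libraries that median was 0.02, and 670 genes passed, 446 higher and 224 lower, so the balance of higher and lower genes depended on the scaling. The count fell to 76, 83 and 183 without HFD+AOS replicate 1, 2 or 3, and rose to 1018 and 1167 without control replicate 1 or 2. It was 5 in a fit of these 2 groups alone.

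**Figure D1:**
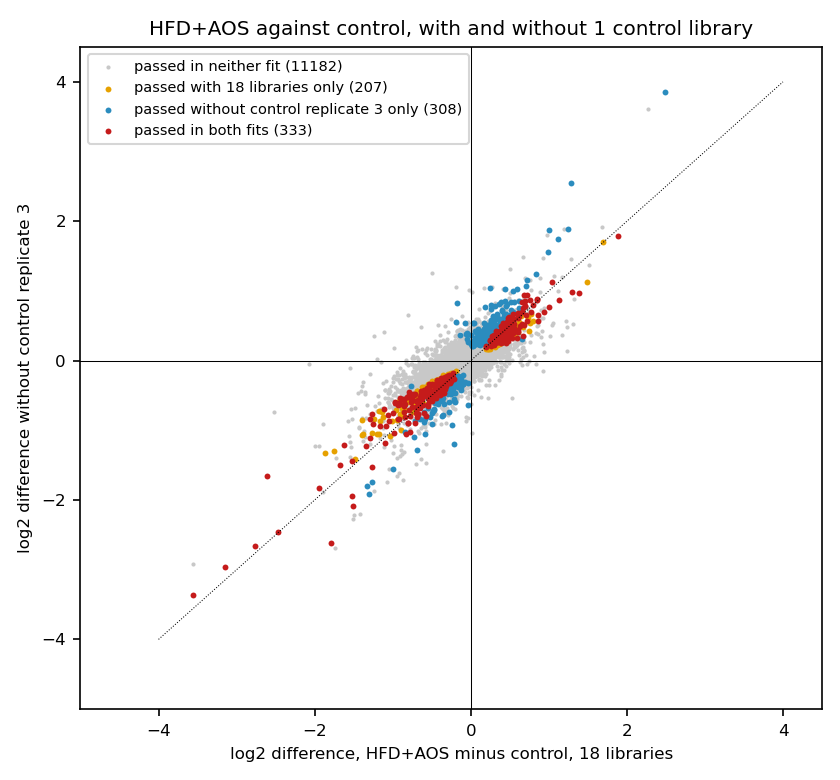
Log2 difference between HFD+AOS and control for each tested gene with all 18 libraries (horizontal axis) and without control replicate 3 (vertical axis), where a point is a gene and the dotted line marks equal values. The 333 genes that passed in both fits (red) lie on the same side of 0 on both axes, and 308 genes (blue) passed only without control replicate 3.

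Clock genes differed between HFD+AOS and control replicates 1 and 2, with the repressors and output factors mostly higher and the activators lower. Of 20 listed clock genes 19 were tested, and without control replicate 3 the test found 9 higher and 5 lower, against the 2.85% and 2.48% of all genes given above. With all 18 libraries 1 was higher (Hlf) and 2 lower (Arntl and Cry1). The median log2 difference of the list was 0.27 with 18 libraries and 0.595 without control replicate 3. This list, like the other lists below, was chosen with earlier results of these data known. Dbp, an output factor of the clock (chromosome 7, 45705088 to 45710203, plus strand, GENCODE on GRCm38, as for all genes placed here), stood at 69.73, 72.26 and 92.87 in the HFD+AOS libraries. The control libraries held 2.76, 6.9 and 90.6. All 3 HFD+AOS libraries were far above control replicates 1 and 2, and control replicate 3 lay among them. The log2 difference was 2.49 ± 0.88 (SE, limma adjusted p = 0.11) with 18 libraries and 3.85 ± 0.64 (adjusted p = 0.00682) without control replicate 3.

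Ciart, a repressor of the clock, stood at 5.18, 7.76 and 8.72 in HFD+AOS and at 0.33, 0.44 and 18.01 in controls. Without control replicate 3 it rose by 2.54 ± 0.23 (limma adjusted p = 6.75e-05), and with it the log2 difference of 1.28 did not pass (adjusted p = 0.262). Per3, a period gene, was at 5.31, 5.18 and 6.15 against 0.5, 1.54 and 6.17. The output factor Tef was at 94.43, 101.04 and 101.47 against 40.58, 42.24 and 97.8. For Per3 and Tef, as for Ciart, the 2 other control libraries lay below every HFD+AOS library and control replicate 3 did not. Without that library Per3 rose by 1.74 (limma adjusted p = 0.00049) and Tef by 1.24 (adjusted p = 0.000113). Nr1d1, Nr1d2, Cry2 and Per2, which all encode repressors, rose on the same basis by 1.89, 1.55, 0.75 and 0.85. None of these 4 passed with all 18 libraries.

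The activator genes differed in the other direction. Arntl, the partner of Clock (chromosome 7, 113207465 to 113314126, plus strand), was at 2.41, 1.84 and 1.48 in HFD+AOS and at 12.54, 10.05 and 2.71 in controls. It fell in both fits, by 1.51 (limma adjusted p = 0.0431) and by 2.08 without control replicate 3 (adjusted p = 0.00216), and the groups did not overlap. Npas2, which can replace Clock, was at 1.9, 1.48 and 1.06 against 10.22, 6.71 and 1.6. Its log2 difference was -1.31 (limma adjusted p = 0.068) with 18 libraries, and without control replicate 3 it fell by 1.92 (adjusted p = 0.00111). Nfil3, a repressor that binds the same sites as Dbp, fell without that library by 1.80 (adjusted p = 0.022), and Clock by 0.37 (adjusted p = 0.0324).

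A pair of clock genes passed in both fits without a marked shift in control replicate 3. Hlf, an output factor, was at 34.43, 35.2 and 32.21 in HFD+AOS and at 21.23, 23.17 and 24.63 in controls, and rose by 0.54 ± 0.07 (limma adjusted p = 0.00371), and by 0.59 without control replicate 3 (adjusted p = 0.00093). Cry1, a cryptochrome repressor, was at 1.35, 0.73 and 1.05 against 3.84, 2.55 and 2.79, and fell by 0.99 (adjusted p = 0.0193) and 1.03 (adjusted p = 0.0174) in the same order. In both genes the 3 libraries of one group lay apart from the 3 of the other. Per1, Rora, Bhlhe40 and Csnk1d passed in neither fit, and Bhlhe41 was below the limit for testing. Per1 was at 4.57, 3.17 and 5.17 in HFD+AOS and at 2.39, 2.54 and 19.01 in controls, so the sign of its difference turned from -0.25 to 0.60 when control replicate 3 was left out.

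**Figure D2:**
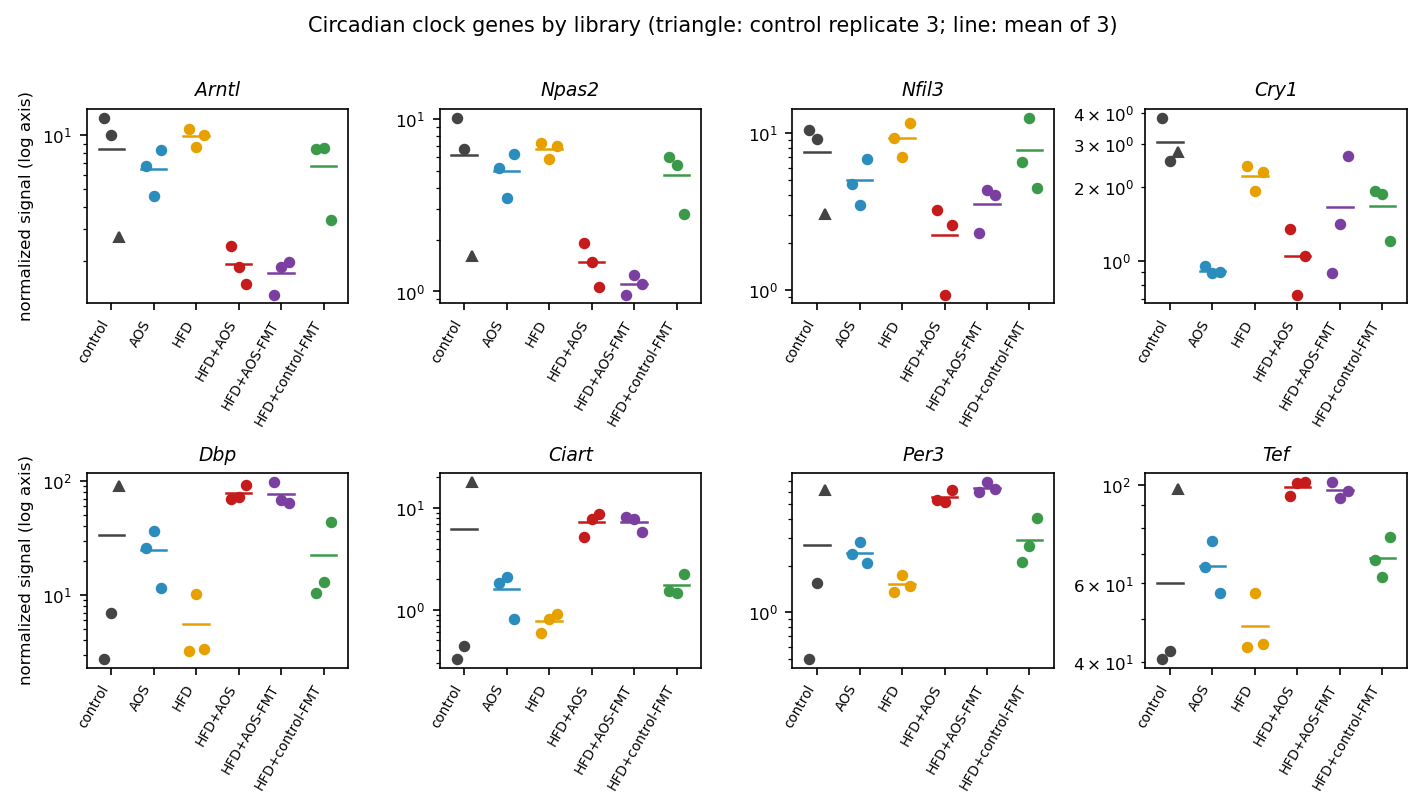
Normalized signal (log axis) of 8 clock genes in each library of the 6 groups, with a line at the mean of 3 and a triangle for control replicate 3. Arntl, Npas2 and Nfil3 are low and Dbp, Ciart, Per3 and Tef high in HFD+AOS and HFD+AOS-FMT, and for these 7 genes the triangle lies with these groups rather than with the other control libraries. Cry1 is as low with AOS alone as in HFD+AOS.

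The mean clock levels differed among the 6 groups. In controls mean Dbp was 33.4 ± 49.6 and mean Arntl 8.43 ± 5.11 (SD, n = 3). With that spread the controls have no clear place among the other groups. Mean Dbp was 5.6 ± 3.96 in HFD, 22.4 ± 18.5 in HFD+control-FMT, 24.6 ± 12.5 with AOS alone, 76.7 ± 18.4 in HFD+AOS-FMT and 78.3 ± 12.7 in HFD+AOS (SD, n = 3 each). The last pair differed by less than its spread. Arntl ran the other way, from 9.85 ± 1.14 in HFD to 1.91 ± 0.469 in HFD+AOS and 1.71 ± 0.356 in HFD+AOS-FMT. HFD+control-FMT and AOS alone lay between, at 6.77 ± 2.93 and 6.53 ± 1.84. Against HFD, Hlf (log2 difference 0.61, limma adjusted p = 0.00233) and Arntl (-1.91, adjusted p = 0.0399) passed with all 18 libraries and Dbp did not (3.73, adjusted p = 0.0641). Dbp passed against HFD without control replicate 3 (limma adjusted p = 0.00477), and so did Ciart (0.000277), Tef (0.000343), Per3 (0.000919), Cry2 (0.000694), Npas2 (0.0013), Nfil3 (0.0164), Nr1d2 (0.00738) and Clock (0.0335). The labels give no time of collection, so for every gene of this comparison the hour of sampling and the treatment cannot be told apart.

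Promoter sequence is shown for 4 of the clock genes that moved, because the letters that clock factors are known to bind stand in them. Stretches before the transcription start were taken from RefSeq (GRCm38.p6), which held 21 promoters of 16 listed clock genes. The motifs were searched on both strands in the 300 bases around each start. These were the E-box CACGTG, bound by the Arntl and Clock pair, the D-box TTATGNAA, bound by Dbp, Tef, Hlf and Nfil3, and the element AGGTCA, bound by the Nr1d and Ror proteins. Capitals mark the motifs, and every sequence is written 5′ to 3′ on the strand of its gene. Ciart is on the minus strand at chr3:95882247-95882364, Per3 on the minus strand at chr4:151044796-151044890, Tef on the plus strand at chr15:81811256-81811301 and Cry1 on the minus strand at chr10:85185089-85185134.
Ciart: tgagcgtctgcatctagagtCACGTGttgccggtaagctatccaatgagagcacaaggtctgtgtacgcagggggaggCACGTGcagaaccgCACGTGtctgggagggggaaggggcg
Per3: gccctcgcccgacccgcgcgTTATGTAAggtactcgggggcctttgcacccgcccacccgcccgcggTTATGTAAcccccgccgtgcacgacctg
Tef: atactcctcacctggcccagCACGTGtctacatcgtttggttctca
Cry1: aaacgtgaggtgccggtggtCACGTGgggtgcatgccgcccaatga

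Ciart holds 3 E-boxes, which begin at positions -116, -58 and -44 from the start. Per3 holds 2 D-boxes at -205 and -158. Tef and Cry1 hold 1 E-box each in these windows, at -138 and -60. An E-box was found in 6 of the 21 clock promoters, a D-box in 2 and the AGGTCA element in 5. Over all 32851 promoters of the same length the shares were 7.15%, 3.38% and 16.3%. Of the genes shown with an E-box, Ciart and Tef rose without control replicate 3 and Cry1 fell in both fits. Per3, with its D-boxes, rose without control replicate 3. Per1 holds all 3 motifs in one promoter and passed in neither fit. No match was found for Dbp, Npas2, Nr1d1 or Hlf, which says only that those letters are not in the window searched.

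The fatty acid desaturase genes Scd1, Scd2 and Fads1 were lower in HFD+AOS. Of 15 tested genes of fatty acid synthesis these 3 fell and 1 rose (Dgat2) in both fits, where 1.61% of all tested genes fell and 1.16% rose. In the fit without control replicate 3, 5 of the list fell, against 2.48% of all genes. The list had a median of -0.52 with 18 libraries and -0.39 without control replicate 3. Scd1, the main stearoyl-CoA desaturase (chromosome 19, 44394455 to 44407879, minus strand), was at 15.56, 13.81 and 22.33 in HFD+AOS and at 82.1, 56.02 and 27.82 in controls. Every HFD+AOS library was below every control library, and control replicate 3 was the lowest control. The summed level of 13 adipose marker genes was 581.19, 326.72 and 167.12 in the controls, in the same order as Scd1, and 107.42, 124.86 and 410.45 in HFD+AOS. HFD+AOS replicate 3 was the highest of its group in both the sum and Scd1. The part of fat tissue in the Scd1 difference was not tested. Scd1 fell by 1.53 ± 0.35 (SE, limma adjusted p = 0.0292), and by 1.94 without control replicate 3 (adjusted p = 0.00673). HFD alone stood at 27.9, 19.92 and 21.46, and the difference of HFD+AOS from it did not pass (log2 difference -0.42, adjusted p = 0.641).

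Scd2, a second desaturase, was at 8.62, 6.63 and 7.61 against 12.56, 11.84 and 23.18 in controls, and fell by 0.91 (limma adjusted p = 0.0292) with control replicate 3 highest and by 0.62 (adjusted p = 0.0455) without it. Fads1, which makes polyunsaturated fatty acids, was at 17, 19.56 and 23.39 against 26.96, 27.54 and 34.5 and fell by 0.55 (adjusted p = 0.0184), or 0.44 without control replicate 3 (adjusted p = 0.0222). HFD alone held Scd2 at 9.29, 7.97 and 8.94, below every control, and HFD+AOS did not pass against it (-0.18, limma adjusted p = 0.759). Fads1 did not pass against HFD with 18 libraries (-0.32, adjusted p = 0.163) and passed without control replicate 3 (0.0486). Dgat2, which makes triglyceride, was at 93.89, 90.68 and 96.65 against 77.38, 72.13 and 69.89. It rose by 0.35 (adjusted p = 0.0193), or 0.32 without control replicate 3 (adjusted p = 0.0239), and the 3 libraries of each group lay within a narrow range. Srebf1, the transcription factor of this pathway, passed in neither fit (log2 difference -0.16, adjusted p = 0.453).

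A few sterol genes were lower as well. Of 20 tested genes of cholesterol synthesis and uptake 4 fell with all 18 libraries, Msmo1, Fdps and Sqle among them, and none rose, where 2.85% of all genes fell. Only Msmo1 passed without control replicate 3, 1 of 20 where 2.48% of all genes fell. The list median was -0.27 and -0.33 in the 2 fits. Msmo1, a sterol oxidase of the late pathway (chromosome 8, 64718139 to 64733792, minus strand), was at 17.18, 18.9 and 19.14 in HFD+AOS and at 26.29, 33.74 and 35.72 in controls, with no overlap. It fell by 0.75 ± 0.15 (limma adjusted p = 0.0171), or 0.67 without control replicate 3 (adjusted p = 0.0247), and was also lower than in HFD (log2 difference -0.68, adjusted p = 0.0467). Fdps, the farnesyl diphosphate synthase, was at 12, 14.31 and 14.91 against 18.64, 21.33 and 28.94, with a log2 difference of -0.68 (limma adjusted p = 0.0294), and -0.51 (adjusted p = 0.0612) without control replicate 3. Sqle, the squalene epoxidase, was at 12.2, 17.07 and 13.63 against 18.32, 22.93 and 36.8, with -0.77 (limma adjusted p = 0.0413) and -0.50 (adjusted p = 0.0772) in the same order. Control replicate 3 was the highest control library for both, and control replicates 1 and 2 also lay above every HFD+AOS library.

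**Figure D3:**
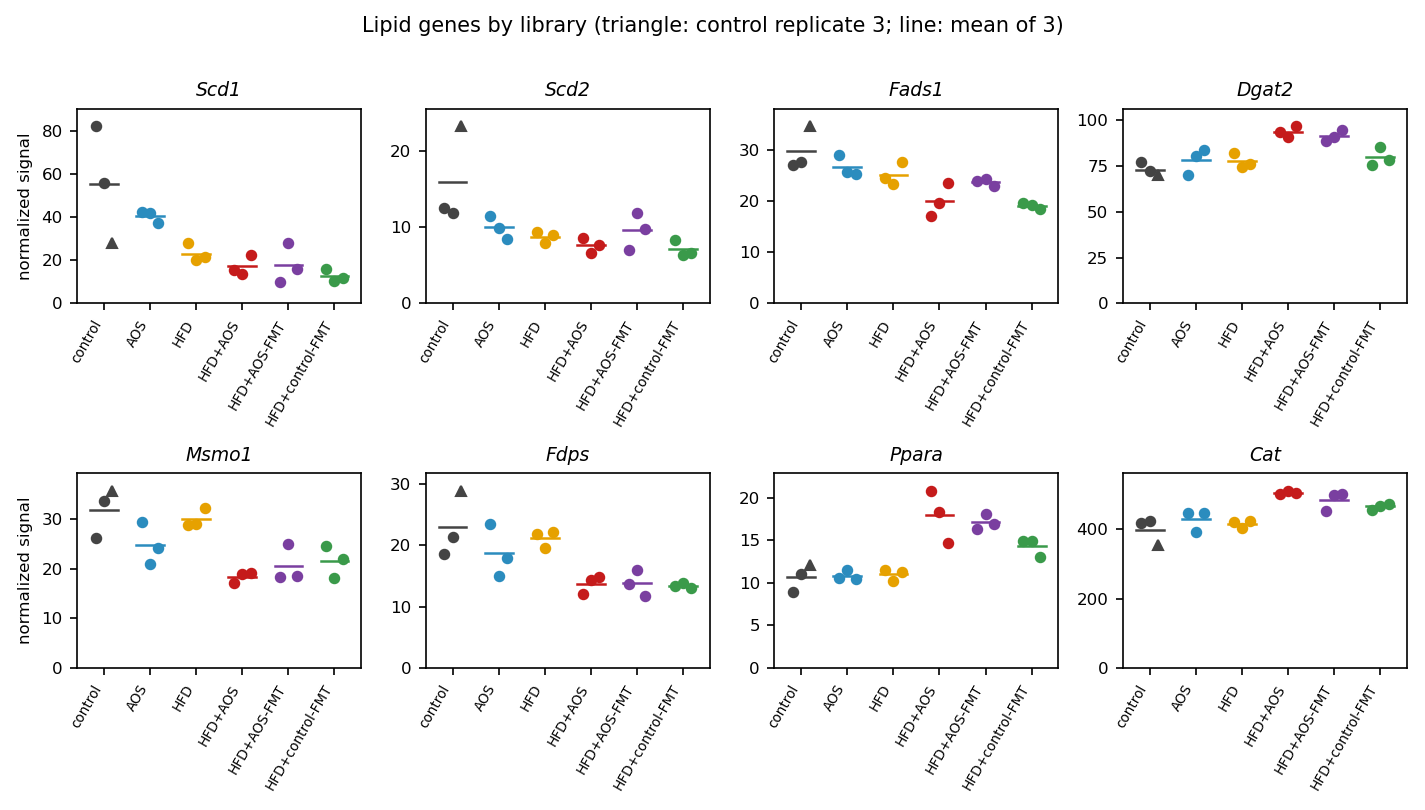
Normalized signal (axis from 0) of 8 lipid and peroxisome genes in each library of the 6 groups, with a line at the mean of 3 and a triangle for control replicate 3. Scd1, Scd2, Fads1, Msmo1 and Fdps are lower, and Dgat2, Ppara and Cat higher, in the 3 HFD+AOS libraries than in the 3 controls.

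Ppara rose, and no other gene of its target list passed with all 18 libraries. Ppara (chromosome 15, 85734983 to 85802819, plus strand) was at 20.79, 18.3 and 14.71 in HFD+AOS and at 8.9, 10.96 and 12.13 in controls, and rose by 0.70 ± 0.11 (SE, limma adjusted p = 0.00765), or 0.79 without control replicate 3 (adjusted p = 0.00205). It was also higher than in HFD, which stood at 11.48, 10.18 and 11.25 (log2 difference 0.65, adjusted p = 0.0225). Of 23 tested genes of fatty acid oxidation and Ppara targets, itself included, 1 passed with all 18 libraries, where 4.49% of all genes did. The list median was -0.19. Without control replicate 3 Cpt1a, the gate of mitochondrial fatty acid uptake, rose by 0.41 (limma adjusted p = 0.0264) and Ehhadh, a peroxisomal oxidation enzyme, fell by 0.35 (adjusted p = 0.03). Cpt1a was at 135.04, 124.39 and 111.66 against 96.33, 88.52 and 121.35, and Ehhadh at 206.65, 203.72 and 208.01 against 277.97, 247.57 and 190.95.

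Among genes of glucose handling, Aldoa, a glycolytic aldolase, was at 728.45, 724.61 and 741.83 in HFD+AOS and at 898.55, 844.13 and 1027.82 in controls, and fell by 0.33 (limma adjusted p = 0.0192), or 0.25 without control replicate 3 (adjusted p = 0.0091). Pkm, the pyruvate kinase, fell by 0.90 (adjusted p = 0.0417) and by 0.53 (adjusted p = 0.0467) in the fits with and without control replicate 3. Of 17 tested genes of gluconeogenesis and glycolysis, these 2 fell in both fits (1.61% of all genes), none rose with 18 libraries and 4 rose without control replicate 3 (2.85% of all genes). Pck1, the enzyme that commits carbon to glucose synthesis, was at 979.53, 884.91 and 873.76 against 523.75, 491.01 and 1010.63. The glucose carrier Slc2a2 was at 65.88, 51.6 and 46.73 against 33.05, 31.57 and 64.77. Control replicate 3 was the highest of the control libraries for each of the pair, and without it Pck1 rose by 0.84 (limma adjusted p = 0.0354) and Slc2a2 by 0.73 (adjusted p = 0.00322).

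The largest increase that passed in both fits was that of Rarres2, which encodes chemerin, a secreted chemoattractant and adipokine (chromosome 6, 48569696 to 48572789, minus strand). It was at 258.06, 241.73 and 97.11 in HFD+AOS and at 51.28, 52.75 and 41.93 in controls, 4.09-fold in the means. All 3 HFD+AOS libraries were above the controls, and replicate 3 was the lowest of the 3. Rarres2 rose by 1.89 ± 0.32 (SE, limma adjusted p = 0.0107), and by 1.79 without control replicate 3 (adjusted p = 0.022). The HFD mean was 74 ± 14.9 and the AOS mean 54.4 ± 14.8 (SD, n = 3), and the log2 difference from HFD (1.31) did not pass with 18 libraries (adjusted p = 0.0773) and passed without control replicate 3 (adjusted p = 0.0461). Enpp2, autotaxin, which makes lysophosphatidic acid, was at 213.23, 209.42 and 173.47 against 136.8, 59.32 and 107.69 and rose by 1.04 (adjusted p = 0.0198), or 1.13 without that library (adjusted p = 0.0215).

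The genes with large increases also included a carrier and several enzymes. Slc22a4, a carrier of organic cations, was at 34.21, 45.17 and 29.99 against 19.61, 18.75 and 24.8 and rose by 0.75 (limma adjusted p = 0.0193), or 0.87 without control replicate 3 (adjusted p = 0.00678). Ugt1a7c, a glucuronosyltransferase, was at 160.07, 165.01 and 159.83 against 93.58, 104.66 and 84.74 and rose by 0.78 (adjusted p = 0.0107), or 0.70 without that library (adjusted p = 0.0144). The 3 HFD+AOS values of Ugt1a7c were close together and above every control, AOS and HFD library. Nat8f6, of the Nat8 acetyltransferase family, rose by 1.00, or 0.77 without control replicate 3. Suox, the sulfite oxidase, rose by 0.79, or 0.80 without it. Reads of Ugt1a and Nat8 genes can fall on near-identical copies, so which member changed is uncertain.

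Other genes by the rule for large increases were Fcamr (an Fc receptor for IgA and IgM, 1.38), Pde6a (a phosphodiesterase subunit, 1.30), Zfp990 (a zinc finger gene, 1.13), Col27a1 (a fibrillar collagen, 0.85), Fnip2 (a folliculin partner, 0.72), Mcm10 (a DNA replication factor, 0.70) and Fmnl1 (a formin, 0.70). Their limma adjusted p with 18 libraries ran from 0.00493 for Fmnl1 to 0.03 for Col27a1. Without control replicate 3 these increases were, in the same order, 0.97, 0.99, 0.88, 0.86, 0.94, 0.85 and 0.78. Of the genes with large increases named here, those also higher than in HFD with 18 libraries were Fmnl1 (adjusted p = 0.00495), Ugt1a7c (0.0225), Ppara (0.0225) and Slc22a4 (0.0495). Rarres2, Nat8f6, Fcamr, Zfp990, Col27a1, Fnip2 and Mcm10 passed against HFD only without control replicate 3, with limma adjusted p from 0.00216 (Fnip2) to 0.0473 (Col27a1). Enpp2, Pde6a and Suox passed against HFD in neither fit. Their log2 differences from HFD were 0.37, 0.10 and 0.31 (limma adjusted p = 0.465, 0.913 and 0.207 with 18 libraries).

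**Figure D4:**
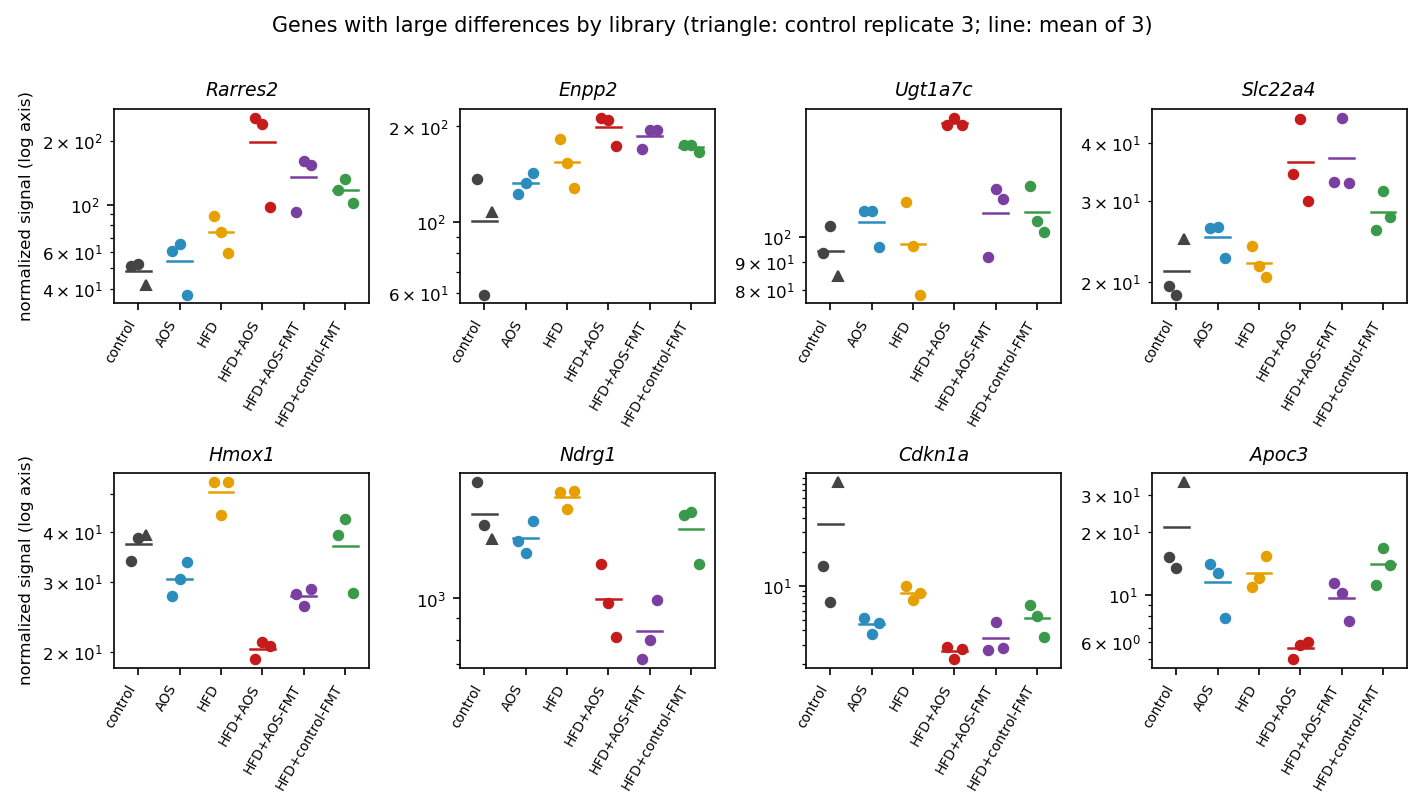
Normalized signal (log axis) of 8 genes with large differences in each library of the 6 groups, with a line at the mean of 3 and a triangle for control replicate 3. Rarres2, Enpp2, Ugt1a7c and Slc22a4 are higher, and Hmox1, Ndrg1, Cdkn1a and Apoc3 lower, in all 3 HFD+AOS libraries than in the 3 controls.

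Hmox1 and Ndrg1, from the antioxidant and hypoxia lists, were lower, and catalase was higher. Hmox1, an inducible haem oxygenase that answers oxidant stress (chromosome 8, 75093621 to 75100589, plus strand), was at 19.17, 21.13 and 20.67 in HFD+AOS and at 33.73, 38.74 and 39.26 in controls, 0.546 times the control mean. It fell by 0.84 ± 0.13 (SE, limma adjusted p = 0.00493), and by 0.80 without control replicate 3 (adjusted p = 0.0056). HFD alone was above the controls, at 53.5, 44.13 and 53.47, and HFD+AOS was also lower than HFD (log2 difference -1.26, adjusted p = 0.000695). Cat, catalase, which removes hydrogen peroxide in peroxisomes, was at 503.42, 511.77 and 505.15 against 420.07, 423.11 and 354.24 and rose by 0.35 (adjusted p = 0.0208), or 0.26 without that library (adjusted p = 0.0219). Hmox1 and Cat were the only genes of 16 tested antioxidant genes that passed in either fit, where 4.49% and 5.33% of all genes did. The list median was -0.22. Ndrg1, induced by hypoxia (chromosome 15, 66929318 to 66969640, minus strand), was at 1206.97, 973.47 and 810.37 against 1881.8, 1491.68 and 1381.28 and fell by 0.67 (adjusted p = 0.03), or 0.77 without that library (adjusted p = 0.0218). It was the 1 of 11 tested hypoxia genes that passed with all 18 libraries, where 4.49% of all genes did. Bnip3, a mitophagy gene, rose without control replicate 3 (0.33, adjusted p = 0.00882).

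No gene of the protein folding lists passed with all 18 libraries. Without control replicate 3 Hsp90aa1 and Chordc1 of 13 tested cytosolic heat shock genes fell, by 0.91 (limma adjusted p = 0.0128) and 0.60 (adjusted p = 0.0495). In that fit 2.48% of all genes fell. Hsp90aa1, the inducible cytosolic chaperone, was at 164.21, 189.54 and 206.64 in HFD+AOS and at 341.97, 357.77 and 149.02 in controls, where replicate 3 was the lowest. Of 16 tested genes of the unfolded protein response, Herpud1, of protein disposal at the endoplasmic reticulum, rose without control replicate 3 (0.79, adjusted p = 0.000602). Calr, the chaperone calreticulin, fell by 0.30 (adjusted p = 0.0288) on the same basis. Over all genes 2.85% rose and 2.48% fell there.

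Cdkn1a, the cell cycle inhibitor p21 (chromosome 17, 29090976 to 29100727, plus strand), was at 2.88, 2.24 and 2.76 in HFD+AOS and at 14.92, 7.11 and 82.6 in controls. It fell by 2.61 (limma adjusted p = 0.0223) with control replicate 3, by far the highest library, and by 1.65 (adjusted p = 0.00515) without it. AOS alone stood at 5.2, 3.73 and 4.62 and HFD at 9.97, 7.37 and 8.62. Cdkn1a was the 1 of 11 tested cell cycle genes that passed, where 4.49% of all genes passed with 18 libraries. Apoc3, an apolipoprotein that slows triglyceride clearance, was at 5, 5.83 and 6.03 against 15.2, 13.55 and 34.55 and fell by 1.62 (adjusted p = 0.0122), or 1.22 without control replicate 3 (adjusted p = 0.00817).

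Cyp4a12b, a fatty acid hydroxylase under androgen control, was at 2.58, 2.05 and 1.18 against 7.83, 6.4 and 10.9 and fell by 1.68 (limma adjusted p = 0.00371), or 1.49 without control replicate 3 (adjusted p = 0.00361). AOS alone (4.04, 2.96 and 1.86) and HFD (3.46, 2 and 3.22) were also below every control library. Cyp4a12b was the 1 of 14 tested androgen responsive genes that passed, where 4.49% of all genes passed with 18 libraries. Its near-identical copy Cyp4a12a can share its reads. Ccl21a, a chemokine of lymphatic vessels, was at 1.35, 2.47 and 5.87 against 10.34, 8.6 and 11.23 and fell by 1.52 (adjusted p = 0.0193), or 1.45 without that library (adjusted p = 0.037). It has other copies in the genome.

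Testis germ cell transcripts made up 7 of the 15 largest decreases, Prm1, Tnp2, Prm2, Tnp1, Oaz3, Ldhc and Fabp9. Prm1, a protamine that packs sperm DNA, was listed at 0, 0 and 0 in HFD+AOS and at 9.07, 9.44 and 14.51 in controls (limma adjusted p = 0.00688). In HFD it was at 8.08, 7.84 and 0 and in AOS at 0, 0 and 0. Tnp2, a transition protein of sperm chromatin, was at 0, 0.18 and 0 in HFD+AOS, at 7.15, 7.33 and 11.13 in controls and at 6.45, 6.89 and 0 in HFD. All 3 control libraries and HFD replicates 1 and 2 thus held these 7 transcripts, and the AOS and HFD+AOS libraries and HFD replicate 3 held them at 0 to 0.29. Meig1, a meiosis gene also among the 15, was lower in HFD+AOS (0.63, 0.6 and 0.16) than in controls (2.5, 2.09 and 1.74) and was present in AOS (0.57, 1.33 and 1.51). Of 6 tested germ cell genes 5 were lower with 18 libraries and 6 without control replicate 3, against 2.85% and 2.48% of all genes. The germ cell list was chosen with earlier results of these data known, so this count is not an independent test. The summed level of the 12 listed germ cell genes was 57.69 to 64.13 in controls and 12.45 to 17.58 in HFD+AOS, of which Smcp, also present in libraries without the protamines, made up most in HFD+AOS.

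That pattern touches every gene above. All control libraries hold the germ cell transcripts and no HFD+AOS library does, so this difference and the treatment cannot be told apart within the comparison. With a term for the 5 libraries that hold them, where the contrast rests on HFD replicates 1 and 2 against 3, limma found 0 genes past the threshold and 1230 at an unadjusted p under 0.05. In that fit the log2 difference was -0.39 for Prm1, -1.40 for Scd1, -1.55 for Arntl, -0.98 for Hmox1, 0.64 for Ppara and 2.35 for Rarres2, none of which passed.

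Outside the germ cell list, the lists of nephron segments and of other cells held at most 2 called genes each in either fit. The summed level of the 20 proximal tubule genes was 14431.49 to 15459.05 in HFD+AOS and 8816.6 to 13429.54 in controls, where replicate 3 was lowest. That of the 15 listed for the loop of Henle and the distal tubule was 2882.34 to 3158.95 against 3747.77 to 4858.55. Neither sum overlapped between the groups. The loop and distal sum was also below every control in the HFD (2604.05, 3122.95 and 3022.04) and AOS libraries (3466.07, 3217.11 and 3284.21). The sums of the collecting duct, oxidative phosphorylation, hypoxia, myeloid, smooth muscle and urothelium, and germ cell lists were likewise lower without overlap. Ndrg1, described above, made up most of the hypoxia sum. The median log2 difference of the hypoxia list was 0.03 with 18 libraries and -0.04 without control replicate 3. The sum of the fatty acid oxidation list was higher without overlap, while its median log2 difference was -0.19 and -0.07 in the 2 fits. The remaining list sums overlapped. A sum follows its most abundant genes, and 21.6% of single tested genes did not overlap either. A sum without overlap is therefore not read here as a result about its list. In 15 of the 33 lists no gene passed in either fit. These were the proximal tubule, loop of Henle and distal tubule, podocyte, tubule injury, oxidative phosphorylation, immediate early, inflammation, interferon, lymphocyte, MHC class II, drug metabolism, adrenal, adipose, endothelium and liver lists. A list holds only some genes of its family. Ndufb7 and Uqcrh of the respiratory chain and Gsta3, Gstm2 and Sult1a1 of conjugation are outside the lists and were picked after their values were seen. These genes fell in both fits, by 0.48, 0.28, 1.27, 0.93 and 0.97 with 18 libraries. Without control replicate 3, the highest control for each, the falls were 0.36, 0.26, 0.77, 0.64 and 0.60 in the same order. The median log2 differences of the 15 lists without a called gene ran from -1.24 (adrenal) to 0.32 (proximal tubule) with 18 libraries. Without control replicate 3 they ran from -0.79 (adipose) to 0.61 (immediate early). Scnn1a, a subunit of the epithelial sodium channel, was the 1 of 14 tested collecting duct genes that passed, where 4.49% of all genes passed with 18 libraries. It was at 36.46, 29.44 and 34.84 in HFD+AOS and at 53.64, 39.3 and 94.51 in controls. It fell by 0.79 (limma adjusted p = 0.0416) and by 0.45 without control replicate 3 (adjusted p = 0.0268). A single called gene in a list of this size is not read here as a result about the list.

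The smooth muscle markers Tagln and Acta2 were lower with all 18 libraries. Tagln was at 8.6, 8.07 and 8.21 in HFD+AOS and at 21.35, 15.61 and 25.47 in controls and fell by 1.21 (limma adjusted p = 0.0208), and Acta2, smooth muscle actin, fell by 0.90 (adjusted p = 0.0453). They were 2 of 9 tested smooth muscle and urothelium genes, where 2.85% of all genes fell. The list median was -0.78, and Myh11 of the same list had a log2 difference of 0.09. The summed level of this list was 42.56 to 64.08 in controls and 19.92 to 27.18 in HFD+AOS. Tagln and Acta2 themselves made up most of that sum. The log2 differences of Tagln and Acta2 without control replicate 3 were -1.05 and -0.79, still with no overlap of the libraries, and did not pass (adjusted p = 0.0504 and 0.103). Lyz2, the lysozyme of macrophages, fell by 1.16 (adjusted p = 0.0269), the 1 of 14 myeloid genes that passed, where 4.49% of all genes did. Its difference of -0.87 without control replicate 3 did not pass (adjusted p = 0.0636). In bulk kidney, fewer cells of a type and less RNA per cell cannot be told apart. Lama1, a laminin chain, rose by 0.37 with 18 libraries (adjusted p = 0.0483), and its difference of 0.36 without control replicate 3 did not pass (adjusted p = 0.0636). With 18 libraries, of 17 tested matrix genes 1 was higher and 1, Acta2, lower, against 1.64% and 2.85% of all genes.

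Of 8 tested red blood cell genes Hba-a2, an alpha globin with a near-identical copy, fell without control replicate 3 (limma adjusted p = 0.0152), where 2.48% of all genes fell. Its signal was low, at 0.78, 0.54 and 0 in HFD+AOS and 2.41, 5.42 and 0.76 in controls. The abundant Hba-a1 passed in neither fit (-0.95 with 18 libraries), nor did Hbb-bs and Hbb-bt, which had the other sign (2.27 and 0.98). Of 12 tested genes of the renin, angiotensin and aldosterone list, 2 rose without control replicate 3, where 2.85% of all genes rose. Among them was Enpep, an aminopeptidase that cleaves angiotensin (0.42, adjusted p = 0.0288). The summed adipose level was 167.12 to 581.19 in controls and 107.42 to 410.45 in HFD+AOS, and the adrenal sum was 62.32 to 1067.36 and 59.10 to 68.13. The part of these tissues in the results was not tested.

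A further 207 genes passed with all 18 libraries and not without control replicate 3, 58 higher and 149 lower. The 6 with the largest differences were Mettl7a3, Arg2 (a mitochondrial arginase), Slc22a19 (an organic anion carrier) and Mrap (an accessory protein of the ACTH receptor), all lower, and Cndp1 (a carnosine peptidase) and Bcl6 (a transcriptional repressor), both higher. Arg2 was at 1.56, 3.13 and 3.84 against 10.04, 6.59 and 22.64, Mrap at 0.65, 0.58 and 2.39 against 5.25, 2.02 and 7.48, and Bcl6 at 21.25, 31.53 and 22.08 against 6.75, 16.49 and 4.52. For Cndp1 the difference was of one size in both fits (1.69 and 1.70), with an adjusted p of 0.0291 and 0.0615 by limma.

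Genes with short transcripts were more often lower. Transcript length, the longest in GENCODE M21, was known for 99.1% of tested genes and had a median of 3282 nt. It was 4010 nt over the genes that passed in both fits and were higher, and 2181 nt over those that were lower. Among the 2981 tested genes with the shortest transcripts (up to 2135 nt) 9 genes passed in both fits as higher and 95 as lower, and among the 2981 with the longest (4707 nt and more) 47 and 13. The median log2 difference of all tested genes went from -0.165 in the shortest bin to -0.05 in the longest with 18 libraries, and from -0.07 to 0.03 without control replicate 3. Against HFD it went from -0.05 to 0.05. Length therefore moved with the direction of the call, and its part in the results was not tested.

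**Figure D5:**
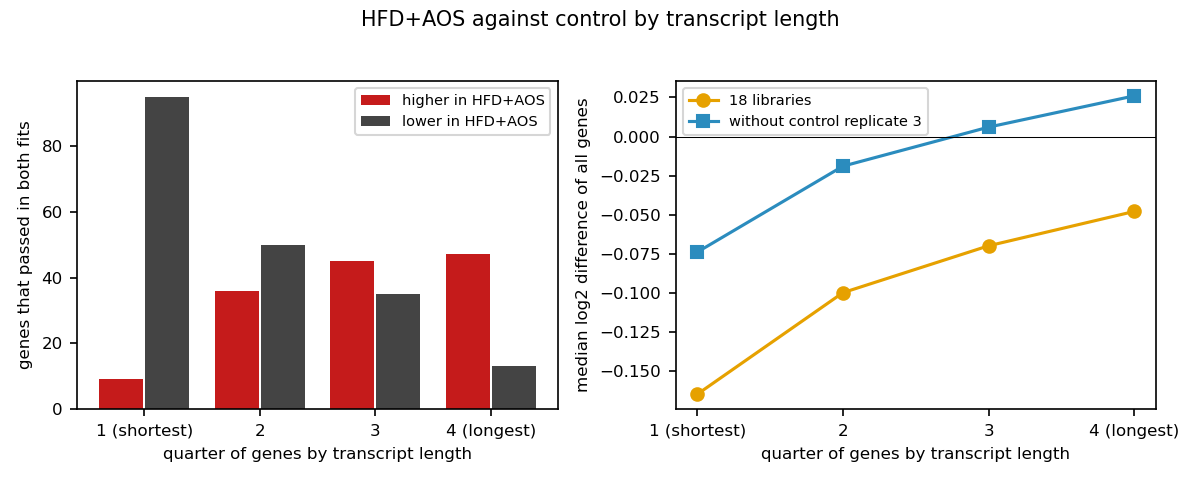
Left, genes that passed in both fits in each of 4 bins of tested genes by transcript length, higher (red) or lower (grey) in HFD+AOS. Right, median log2 difference of all tested genes in each bin with 18 libraries and without control replicate 3. Lower calls fall from 95 to 13 and higher calls rise from 9 to 47 from the shortest to the longest bin.

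HFD+AOS was next set against each of its parts. Against HFD 99 genes passed (0.823%), 56 higher (0.466%) and 43 lower (0.357%), and 808 (6.72%) without control replicate 3, which enters there only through the shared spread. This comparison shares the HFD+AOS libraries with the one above. Against AOS alone limma found 0 genes past the threshold with all 18 libraries, with 1333 at an unadjusted p under 0.05, and 158 (1.31%) without control replicate 3. Array weights in limma gave 276. The smallest adjusted p against AOS among the genes named above was 0.061 with 18 libraries, for Hlf. Hlf passed without control replicate 3 (0.00874), as did, among others, Ciart (0.00811), Ppara (0.0138), Tef (0.0286), Npas2 (0.0286), Arntl (0.0316), Rarres2 (0.037) and Hmox1 (0.0454). An adjusted p above the threshold does not show that HFD+AOS and AOS alone were alike. HFD against control had 0 genes past the limma threshold in both fits, with 2091 and 822 at an unadjusted p under 0.05, and AOS against control had 4 (0.0333%) and 0, with 1529 and 1043. With all 18 libraries no gene passed the limma test of whether the effect of the diet differed with AOS, and 1490 had an unadjusted p under 0.05. That test was not repeated without control replicate 3, although the control group enters it.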

How the data were processed

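Kidney RNA was sequenced from 18 libraries in 6 groups of 3. The authors deposited 1 table of normalized signal per gene and library, whose unit is not stated. Bowtie 0.12.2 and mm10 are named as aligner and build per the submitters' processing notes. How reads were counted and scaled, and on which annotation, is not given in the sources used here. Depth is therefore unknown, and no counting interval can be given. Library sums ran from 637302.2 to 721170.6. Of 19545 entries, 26 whose symbol had been turned into a date and 1 repeated symbol were left out.

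Signals were taken as log2(value + 1) for the 12030 genes at 1 or more in at least 3 libraries. A linear model with 6 groups was fitted with limma (version 3.58.1 under R 4.3.3), its variance moderation set to trended and robust, two-sided, with Benjamini-Hochberg adjustment over all tested genes within a comparison. It was repeated without control replicate 3, except for the test of whether the effect of the diet differed with AOS. Named genes were the 15 largest increases and 15 largest decreases that passed in both fits without overlap of the groups, up to 4 members with the smallest p per list, all clock genes, markers of other cells, and 6 genes that passed only with control replicate 3. A few genes that the rule names are not reported here. The members and the 33 lists were chosen with earlier results of these data known. Gene coordinates and transcript lengths are from GENCODE M21 (GRCm38) and promoters from RefSeq (GRCm38.p6). Alternatives were other pseudocounts, filters, scalings, variance settings, a replicate block, a term for germ cell transcripts, the 2 compared groups alone, and each replicate left out.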

Additional observations from a re-analysis of the deposited data

How the results depend on the processing

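For HFD+AOS against control the count of 540 stayed within 1.5 times under 2 other pseudocounts, 2 other filters, 2 other scalings, 2 other variance settings and the replicate block (433 to 715). It was 0 with the germ cell transcript term, 5 with the 2 groups alone, and 76 to 1167 with 1 replicate left out. The share of higher genes was 36.5%, and 27.0% without a filter, 49.0% with array weights, 66.6% after quantile normalization and 67.0% after shifting libraries to the same median. For HFD+AOS against HFD the count of 99 was 45 without a filter, 943 with array weights, 7 with the germ cell transcript term, 314 with the 2 groups alone and 10 to 808 with 1 replicate left out. For HFD+AOS against AOS the count of 0 was 2 with the filter at 5, 4 after quantile normalization, 3 after the median shift, 4 without trend and robust settings, 276 with array weights, 2 with the 2 groups alone and 0 to 158 with 1 replicate left out. Deviations from the group mean in HFD+AOS and control libraries of the same number correlated at -0.093, 0.09 and -0.021 for numbers 1, 2 and 3. Control replicate 3, which stands apart, enters every control deviation, so these values cannot decide whether the numbers pair the samples. With the replicate block the counts were 433 against control, 45 against HFD and 0 against AOS. Of 52 named genes that passed with 18 libraries, 0 kept the call with the germ cell transcript term, 5 with the 2 groups alone, 18, 19 and 31 without HFD+AOS replicate 1, 2 or 3, and 40 without control replicate 3. Log2 differences turned sign for Prm2 (0.0278, germ cell transcript term), Calr (0.0562 after quantile normalization, 0.034 after the median shift, -0.3032 to 0.0877 with 1 replicate left out), Chordc1 (-0.5992 to 0.1086 with 1 left out) and Per1 (0.4526 with array weights, -0.6855 to 0.5951 with 1 left out). Of these only Prm2 passed with 18 libraries. Leaving out a replicate or fitting 2 groups leaves fewer samples, and the cause of the other shifts was not tested.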

Other observations

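Genes outside the lists were looked at after their values were seen, and those named here passed in both fits. They were picked one by one, and stand for no pathway. Hoga1, which acts in the mitochondrial breakdown of hydroxyproline, was at 107.69, 114.43 and 99.81 against 75.72, 80.38 and 80.22 in controls and rose by 0.44 (limma adjusted p = 0.00382). Dhtkd1, of lysine breakdown, rose by 0.66 (adjusted p = 0.0365), Agxt2, an aminotransferase, by 0.56 (0.0161) and Aldh6a1, of valine breakdown, by 0.36 (0.0199). Bcat2 and Aadat fell, Bcat2, the mitochondrial transaminase of branched chain amino acids, at 21.12, 20.87 and 25.01 against 33.19, 31.94 and 59.35, and Aadat, of lysine and kynurenine metabolism, at 139.69, 179.12 and 165.77 against 217.78, 227.95 and 217.25. Hoga1 and Dhtkd1 were also higher than in HFD (adjusted p = 0.0348 and 0.0467).

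G6pdx and Pgd, which make NADPH in the pentose phosphate pathway, fell, G6pdx at 12.99, 14.11 and 15.61 against 16.86, 19.67 and 25.43 and Pgd at 45.91, 43.3 and 46.76 against 54.08, 53.46 and 72.46, with limma adjusted p of 0.0287 and 0.0327. Pmvk, of the mevalonate pathway, fell by 0.70 (adjusted p = 0.0192) and Mgll, a monoglyceride lipase, by 0.77 (adjusted p = 0.0193). Por, the electron donor of cytochrome P450 enzymes, was at 187.12, 198.02 and 206.99 against 125.79, 146.97 and 151.92 and rose by 0.48 (adjusted p = 0.0223). Ppard, a relative of Ppara, was at 8.23, 9.5 and 8.21 in HFD+AOS and at 54.7, 61.63 and 9.47 in controls. Control replicate 3 lay next to the HFD+AOS libraries, and Ppard fell by 1.78 (adjusted p = 0.0484) with it and by 2.62 (adjusted p = 6.75e-05) without it. The genes with the smallest p were Ctbs (a lysosomal glycosidase), Sdc2 (syndecan-2) and Tmem174, all higher, and Dap, lower, each with a limma adjusted p of 0.000946. Tmem174, a membrane protein of the proximal tubule, was at 290.47, 300.63 and 267.05 against 181.92, 192.62 and 185.49, and Npnt, nephronectin, a matrix protein, at 23.74, 24.03 and 24.24 against 35.55, 41.99 and 41.22.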
